A study of Homo sapiens with 6 samples.

Results

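Heat shock chaperones are proteins that help other proteins to fold, and HSF1 is the transcription factor that raises their genes when misfolded protein builds up. The genes described here are HSF1 and 9 chaperone or cochaperone genes, HSPA1A, HSPA1B, HSPH1, DNAJB1, HSP90AA1, BAG3, CHORDC1, HSPD1 and HSPE1. They were taken by symbol from a list made with earlier results of these data known, and each symbol was matched to 1 Ensembl gene of the count and RSEM tables. These are 10 of the 60609 genes in the tables, and all 10 had enough counts to be among the 20725 genes tested. RNA was sequenced from OCI-AML5, an established acute myeloid leukemia line grown with GM-CSF. The 3 DMSO libraries came from cells given the solvent for 24 hours, and the 3 S767 libraries from cells given 1 µM S767, a code-named compound that the study followed for its effects on metals in the cell, for the same time. Both groups were the same line under the same medium, so the compound was the single labelled difference. Libraries carry replicate numbers 1 to 3 in each treatment. The study's methods give the treatment as done in triplicate and do not say what a number shares between DMSO and S767.

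At rest, HSF1 is held inactive by chaperones. When damaged proteins draw the chaperones away, HSF1 forms trimers in the nucleus and binds heat shock elements, which are inverted repeats of the unit GAA upstream of its target genes. HSPA1A, HSPA1B, HSPH1, DNAJB1 and BAG3 are among its classical targets, and their mRNA is used as a readout of the response. Heat, proteasome inhibitors, HSP90 inhibitors and thiol-binding metals are known inducers. HSF1 itself is controlled mainly through its protein, so its mRNA need not change when it is active.

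To show what the genes share in sequence, the 250 bases upstream of annotated starts were read from RefSeq (GRCh38.p14). The windows of 9 of the 10 genes were used, 13 in all, and HSF1 was not analysed here in this respect. Each window of 250 bases before and 50 after the start was searched on both strands for inverted GAA units, written GAANNTTC or TTCNNGAA, and for 3 such units in a row, written GAANNTTCNNGAA or TTCNNGAANNTTC, which contain the shorter form. The shorter form was in 7 of the 13 windows, from 6 genes, and in 13.5% of the 35116 promoter windows of all genes. The longer form was in 3 windows, those of CHORDC1, HSP90AA1 and HSPD1, and in 0.490% of all windows. The stretches below are those of the genes on which the results turn, CHORDC1 and BAG3 because they passed one of the tests, HSPA1A and HSPA1B because they are a near-identical pair that behaved differently between replicates, and HSP90AA1 as a window with 3 units. Capitals mark the matches, and each is given 5′ to 3′ on the strand of the gene.
CHORDC1: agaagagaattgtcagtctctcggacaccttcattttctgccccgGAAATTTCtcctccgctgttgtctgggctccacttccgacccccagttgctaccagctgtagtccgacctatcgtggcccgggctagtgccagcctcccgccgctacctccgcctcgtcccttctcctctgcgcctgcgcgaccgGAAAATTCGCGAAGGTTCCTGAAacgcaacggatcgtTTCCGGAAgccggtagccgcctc
BAG3: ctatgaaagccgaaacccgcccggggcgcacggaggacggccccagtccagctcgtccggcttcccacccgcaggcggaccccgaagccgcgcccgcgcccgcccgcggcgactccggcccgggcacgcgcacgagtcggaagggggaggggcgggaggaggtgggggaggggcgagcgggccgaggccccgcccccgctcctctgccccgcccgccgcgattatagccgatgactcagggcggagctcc
HSPA1A: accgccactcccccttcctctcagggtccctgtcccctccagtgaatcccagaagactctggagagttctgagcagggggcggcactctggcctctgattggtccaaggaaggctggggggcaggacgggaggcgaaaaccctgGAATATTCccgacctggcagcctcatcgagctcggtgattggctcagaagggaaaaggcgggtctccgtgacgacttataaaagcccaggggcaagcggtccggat
HSPA1B: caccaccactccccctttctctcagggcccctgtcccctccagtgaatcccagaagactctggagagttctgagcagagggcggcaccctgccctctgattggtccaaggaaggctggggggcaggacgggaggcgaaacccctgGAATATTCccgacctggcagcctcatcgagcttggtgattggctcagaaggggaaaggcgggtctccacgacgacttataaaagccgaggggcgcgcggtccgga
HSP90AA1: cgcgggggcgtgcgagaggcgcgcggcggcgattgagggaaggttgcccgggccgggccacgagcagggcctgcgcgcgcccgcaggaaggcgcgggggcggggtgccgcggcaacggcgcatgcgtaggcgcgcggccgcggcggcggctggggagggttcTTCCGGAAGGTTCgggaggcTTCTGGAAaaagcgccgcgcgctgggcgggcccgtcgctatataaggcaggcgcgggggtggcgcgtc
The CHORDC1 stretch lies at chr11:90223050-90223299 on the minus strand and holds matches whose first bases lie from position -205 to position -23 from the annotated start. The BAG3 stretch, chr10:119651130-119651379 on the plus strand, holds no match to these letters. The HSPA1A and HSPA1B stretches, chr6:31815293-31815542 and chr6:31827488-31827737, both on the plus strand, hold 1 match each, starting at positions -106 and -105. Set side by side with a shift of 1 base, these 2 stretches are identical at 235 of 249 bases (94.4%). The HSP90AA1 stretch, chr14:102087045-102087294 on the minus strand, holds matches that start from position -88 to position -68. Another annotated start of HSP90AA1, with the stretch chr14:102139750-102139999, had no match and is not printed. A match is a string of letters and was not tested as a binding site.

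No heat shock gene was called in either direction when all S767 libraries were set against all DMSO libraries. The log2 fold changes of the 10 genes ran from -0.12 (HSPA1B) to 0.03 (HSF1), 9 of the 10 were below 0, and their median was -0.07, against -0.0002 over all genes tested. In edgeR's quasi-likelihood test every one had an adjusted p of 1.00, and 0 of the 10 had an unadjusted P under 0.05 with edgeR, with limma-voom or with DESeq2. When DMSO replicate 1 alone was left out, and S767 replicate 1 kept, 7 of the 9 negative values turned above 0 and the median became 0.032, with no call. When both replicate 1 libraries were left out of the blocked fit, 6 of these 9 genes stayed below 0 and the median was -0.05. Of all genes tested, 0.00483% passed the adjusted limit of 0.05 and 3.53% had an unadjusted P under 0.05. In none of the 10 genes did the 3 S767 libraries lie wholly below the 3 DMSO libraries, a pattern seen in 4.08% of all genes. With the replicate number as a block, that is with each S767 library read against the DMSO library of the same number, BAG3 and CHORDC1 were lower in S767 and no member was higher. In that fit 1.08% of all genes were called lower and 2.16% higher, and among the 7666 genes with a mean CPM of at least 20 (CPM are counts scaled by the normalized library size), where these genes lie, 2.00% were called lower. An unadjusted P under 0.05 in the blocked fit was found for 5 of the 10 genes, all lower, against 7.39% of all genes lower. Among the 7666 genes with a mean CPM of at least 20, 869 were lower at that limit.

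**Figure D1:**
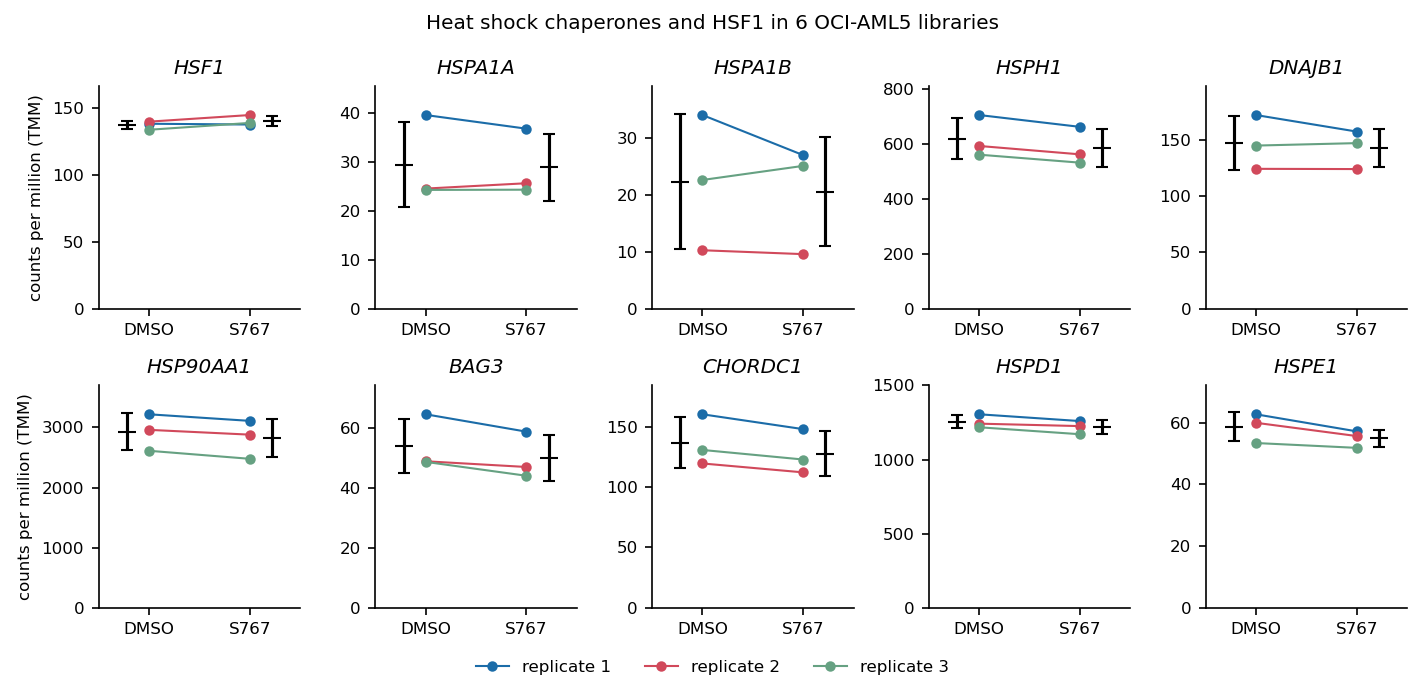
CPM of each gene (vertical axes, each from 0) in DMSO and S767, with lines joining libraries of the same replicate number and black bars giving the mean ± SD of 3 libraries. The groups overlap in every panel. Relative to their level, the replicates are closest in HSF1 (133.6 to 144.6 CPM) and furthest apart in HSPA1B, where the DMSO libraries span 10.3 to 34.0 CPM while the means of the groups are 22.3 and 20.5 CPM.

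HSF1, the transcription factor of the response (chr8:144291591-144314722, plus strand, GRCh38), was at 138.1, 139.7 and 133.6 CPM in DMSO replicates 1, 2 and 3 and at 137.5, 144.6 and 138.7 CPM in S767. The groups overlapped, and every library lay within a narrow band. The log2 fold change was 0.03 (SE 0.04, 95% interval -0.05 to 0.12), with an adjusted p of 1.00 in edgeR without the block and 0.55 with it. The blocked interval allows an HSF1 mRNA at most 1.06-fold that of DMSO.

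HSPA1A and HSPA1B encode the inducible form of HSP70, which binds exposed stretches of unfolded proteins, and they lie next to each other on chromosome 6 (HSPA1A at chr6:31815464-31817946, HSPA1B at chr6:31827735-31830255). HSPA1A was at 39.5, 24.5 and 24.2 CPM in DMSO and at 36.8, 25.6 and 24.3 CPM in S767. Replicate 1 was the high library under both treatments, and the other 4 libraries were nearly level. HSPA1B was at 34.0, 10.3 and 22.6 CPM in DMSO and at 26.9, 9.57 and 25.1 CPM in S767. Replicate 2 was the low library under both treatments, and the groups overlapped over most of their range.
The log2 fold change of HSPA1A was -0.03 without the block (95% interval -0.52 to 0.46) and -0.02 with it (-0.09 to 0.06, adjusted p = 0.86, edgeR). That of HSPA1B was -0.12 without the block (-1.15 to 0.91) and -0.10 with it (-0.24 to 0.05, adjusted p = 0.52, edgeR). The 3 pairs of HSPA1B did not share a direction, with log2 ratios of -0.33, -0.10 and 0.15, and with replicate 3 left out the blocked fit called it lower (log2 fold change -0.24, adjusted p = 5.27e-05, edgeR). HSPA1B and HSPA1A moved apart more between replicates than between treatments. The ratio of HSPA1B to HSPA1A TPM, a level per transcript length from RSEM, was 0.827, 0.409 and 0.962 in DMSO and 0.764, 0.388 and 1.05 in S767. It was lowest in replicate 2 under both treatments, and the log2 ratio differed by -0.02 between treatments (exact two-sided permutation test, p = 1, where 3 libraries against 3 allow no p below 0.1). The summed TPM of both genes was 186.6, 84.3 and 116.4 in DMSO and 166.7, 82.4 and 118.3 in S767. It differed by -0.06 on the log2 scale (exact two-sided permutation test, p = 0.8). Both permutation tests took the libraries as unpaired. Within pairs 1, 2 and 3 the log2 ratio of HSPA1B to HSPA1A shifted by -0.12, -0.08 and 0.12. The log2 sum shifted by -0.16, -0.03 and 0.02.
Reads of this pair are hard to place. In GENCODE 29, 67.3% of the stretches of 100 bases in HSPA1A transcripts and 72.7% of those in HSPA1B also occur in another gene, for HSPA1A in HSPA1B and for HSPA1B mostly (68.8%) in HSPA1A. In addition 36.5% of the HSPA1B exon bases are covered by another gene of the same strand, AL671762.1. The uniquely placed fragments were 23.4 to 24.9% of the RSEM expected count for HSPA1A and 21.6 to 23.4% for HSPA1B. How this splitting of reads bears on the ratio was not tested, but the ratio of the unique counts moved in the same way, with 0.860, 0.418 and 0.931 in DMSO and 0.733, 0.374 and 1.03 in S767.

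**Figure D2:**
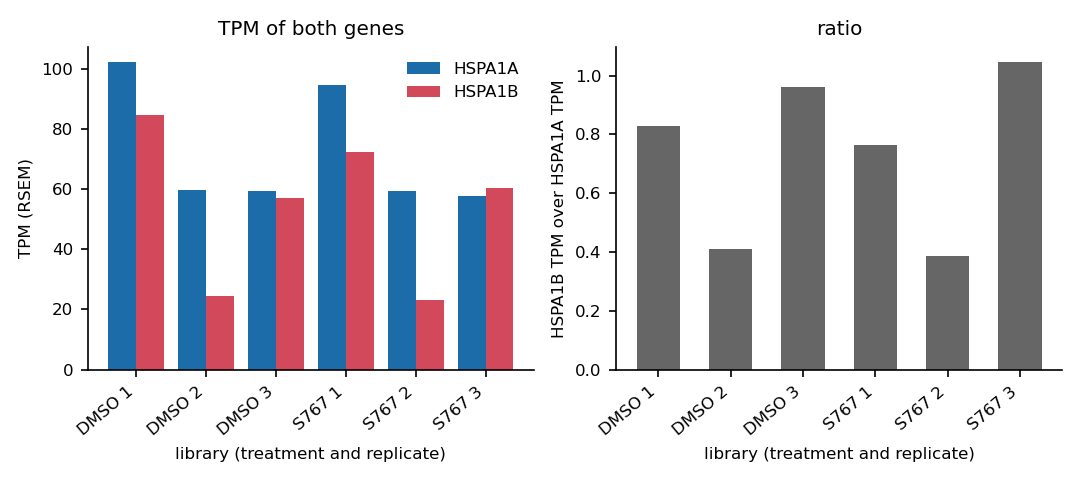
TPM of HSPA1A and HSPA1B in each of the 6 libraries (left, bars from 0) and the ratio of HSPA1B to HSPA1A TPM (right, bars from 0). The 2 replicate 2 libraries have the lowest ratios, 0.409 and 0.388, and the other 4 lie between 0.764 and 1.05.

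HSPH1 encodes HSP110, a relative of HSP70 that exchanges its nucleotide and helps to dissolve aggregates (chr13:31134974-31162388, minus strand). It was at 705.2, 592.6 and 560.8 CPM in DMSO and at 662.2, 562.0 and 531.8 CPM in S767. Each S767 library was below its DMSO partner, and the groups overlapped, with replicate 1 the highest library under both treatments. The pairs gave log2 ratios of -0.09, -0.08 and -0.08, the narrowest spread among the members, and the blocked log2 fold change was -0.08 (SE 0.02, adjusted p = 0.078, edgeR). It missed the limit in edgeR and passed it in limma-voom with the same block (adjusted p = 0.039).
DNAJB1 is the HSP40 that hands clients to HSP70 (chr19:14514770-14529770, minus strand). It was at 172.1, 124.3 and 145.0 CPM in DMSO and at 157.4, 124.1 and 147.1 CPM in S767. Replicate 1 was again the highest, and only pair 1 showed a drop of any size, -0.13 on the log2 scale, while pairs 2 and 3 were at -0.0025 and 0.02. The blocked log2 fold change was -0.04 (SE 0.03, adjusted p = 0.59, edgeR). Between 16.3 and 22.3% of the fragments on DNAJB1 were on the opposite strand, more than for any other member, and these were not counted here.

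BAG3, a cochaperone that releases clients from HSP70 and steers aggregates to autophagy (chr10:119651370-119677819, plus strand), was at 64.7, 49.0 and 48.8 CPM in DMSO and at 58.9, 47.1 and 44.1 CPM in S767. Each S767 library was below its DMSO partner, yet replicate 1 of S767 was above DMSO replicates 2 and 3. The log2 fold change was -0.11 in both fits. Its SE was 0.13 without the block (adjusted p = 1.00, edgeR) and 0.03 with it (95% interval -0.17 to -0.05, adjusted p = 0.042, edgeR), which is 0.888 to 0.963 of the DMSO level. With RSEM counts the blocked adjusted p was 0.062 (edgeR).
HSP90AA1 encodes the inducible cytosolic HSP90, which matures kinases and receptors (chr14:102080738-102139699, minus strand). It was at 3219, 2960.0 and 2612 CPM in DMSO and at 3109, 2880.4 and 2479 CPM in S767. All 3 pairs were lower in S767, by -0.05, -0.04 and -0.08 on the log2 scale, which is small beside the 0.31 that separated the replicate numbers. The blocked log2 fold change was -0.05 (SE 0.03, adjusted p = 0.29, edgeR).
CHORDC1, a zinc-binding cochaperone of HSP90 (chr11:90201160-90223364, minus strand), was at 160.2, 119.5 and 130.7 CPM in DMSO and at 147.9, 112.1 and 122.8 CPM in S767. All 3 pairs were lower, with log2 ratios of -0.12, -0.09 and -0.09, and the groups overlapped. The log2 fold change was -0.10 in both fits, with an SE of 0.12 without the block (adjusted p = 1.00, edgeR) and 0.02 with it (95% interval -0.15 to -0.05, adjusted p = 0.035, edgeR), which is 0.902 to 0.966 of the DMSO level. With RSEM counts the blocked adjusted p was 0.044 (edgeR), so it was the only member called by the block on both kinds of count.
Both calls were lost without pair 2, where the blocked adjusted p (edgeR) was 0.28 for BAG3 and 0.42 for CHORDC1, and without pair 3, where it was 0.13 and 0.059. The log2 fold changes on the 2 remaining pairs were then -0.14 and -0.10 for BAG3 and -0.10 and -0.11 for CHORDC1. Both calls held without pair 1, at 0.018 and 0.0086. The number of calls over all genes also moved with the pair left out. It was 24 of 21198 genes without pair 2, 636 of 20801 without pair 3 and 2034 of 20629 without pair 1.

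HSPD1 and HSPE1 encode the mitochondrial chaperonin HSP60 and its lid HSP10, and they lie on opposite strands of chromosome 2 (HSPD1 at chr2:197486581-197516737, minus strand, and HSPE1 at chr2:197499994-197503457, plus strand). As annotated, HSPE1 lies within the span of HSPD1. HSPD1 was at 1305.5, 1242 and 1218 CPM in DMSO and at 1259.8, 1226 and 1171 CPM in S767. It was lower in every pair, by -0.05, -0.02 and -0.06 on the log2 scale, and the blocked log2 fold change was -0.04 (SE 0.02, adjusted p = 0.41, edgeR). HSPE1 was at 62.7, 59.9 and 53.4 CPM in DMSO and at 57.2, 55.7 and 51.8 CPM in S767. It was also lower in every pair, and the blocked log2 fold change was -0.09 (SE 0.03, adjusted p = 0.078, edgeR).
Besides HSPA1A and HSPA1B, HSPE1 is the member whose unique counts fell far below its estimated counts, at 21.3 to 23.2% of the RSEM expected count. HSPE1-MOB4, a read-through gene on the same strand, covers 9.71% of the HSPE1 exon bases. It had 0 unique fragments in all 6 libraries, while RSEM gave it 4.64 to 5.72 TPM. With RSEM counts the blocked log2 fold change of HSPE1 was -0.07 (adjusted p = 0.28, edgeR). For the members other than HSPA1A, HSPA1B and HSPE1, the unique counts were 93.7 to 106.0% of the expected counts.

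**Figure D3:**
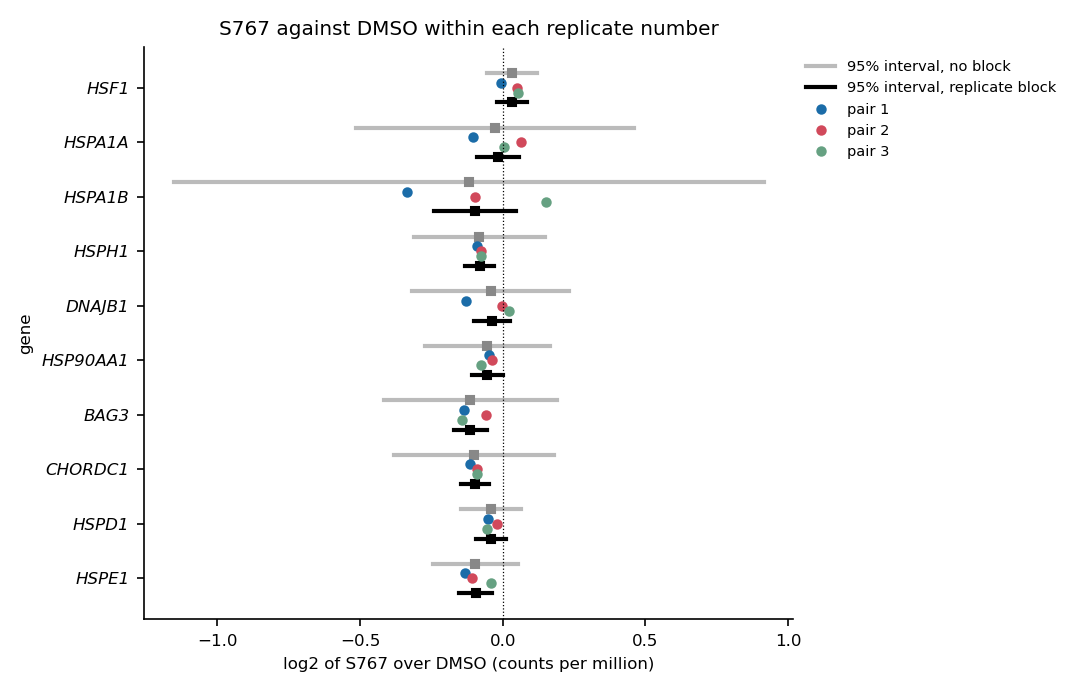
The log2 ratio of S767 to DMSO within each replicate number (coloured points) for each gene, with the estimate and 95% interval of edgeR without the block (grey) and with it (black). The black intervals of HSPH1, HSP90AA1, BAG3, CHORDC1 and HSPE1 lie below 0, that of HSP90AA1 with its upper end at -0.0004, and every grey interval spans 0.

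Within pairs, most of the genes were lower in S767. In pair 1 all 10 genes were lower, in pair 2 it was 8 of the 10 (not HSF1 and HSPA1A) and in pair 3 6 of the 10 (not HSF1, HSPA1A, HSPA1B and DNAJB1). Of all genes tested, 47.9%, 49.6% and 49.7% were lower in these pairs. In all 3 pairs 6 of the 10 genes were lower, HSPH1, HSP90AA1, BAG3, CHORDC1, HSPD1 and HSPE1, against 17.8% of all genes and 20.7% of those with a mean CPM of at least 20. The median log2 ratio of the 10 genes was -0.11, -0.05 and -0.05 in pairs 1, 2 and 3. The 10 genes were read in the same 6 libraries and are not independent of each other.

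The upper ends of the intervals give the largest mean rise that each fit allows. Without the block the 95% interval reached 1.88-fold for HSPA1B, 1.38-fold for HSPA1A and at most 1.18-fold for the other 8 genes. With the block it reached 1.04-fold for HSPA1A, 1.03-fold for HSPA1B, 1.02-fold for DNAJB1 and 0.978-fold for HSPH1. The blocked ends concern the mean over pairs and use a spread that edgeR draws partly from other genes. A single pair can lie beyond them, as pair 3 of HSPA1B did with a log2 ratio of 0.15. All these ends are for 24 hours and 1 dose, and earlier times were not analysed here.

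Set by length, the 3 most abundant members were HSP90AA1, HSPE1 and HSPD1, with mean TPM in DMSO of 1167 ± 118, 1009.6 ± 108 and 894 ± 32.7 (SD, n = 3) and in S767 of 1118 ± 147, 957.8 ± 88.0 and 863 ± 44.5 (SD, n = 3). The ranges of neighbours in this order overlapped. The place of HSPE1 rests on how RSEM assigned reads, since its unique counts were 21.3 to 23.2% of the RSEM expected count. HSPH1 followed at 255 ± 30.9 TPM in DMSO and 238 ± 34.2 in S767 (SD, n = 3), clear of both its neighbours. Next in DMSO came HSF1 (97.9 ± 2.05 TPM), CHORDC1 (97.2 ± 13.1 TPM) and DNAJB1 (94.1 ± 14.6 TPM). HSPA1A (73.8 ± 24.6 TPM), HSPA1B (55.4 ± 30.04 TPM) and BAG3 (29.7 ± 5.42 TPM) followed, each with the SD of 3 DMSO libraries. Neighbours among these could not be put in a firm order, since the range of each overlapped that of the next. BAG3 (at most 35.97 TPM) lay wholly below HSF1, CHORDC1, DNAJB1 and HSPA1A (at least 57.8 TPM). HSPA1B (at most 84.5 TPM) lay wholly below HSF1 (at least 95.7 TPM). The SD of HSF1 was the smallest relative to its level and that of HSPA1B the largest.

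The chaperone genes varied more with the replicate number than with the treatment. For all 9 chaperone members replicate 1 was the highest library in DMSO and in S767, a pattern held by 21.3% of all genes and by 22.7% of those with a mean CPM of at least 20, and HSF1 did not show it. The replicate number took 90.5 to 98.6% of the sum of squares of log2 CPM for HSPA1A, HSPA1B, HSPH1, DNAJB1, HSP90AA1, BAG3 and CHORDC1, 77.3% for HSPD1, 70.5% for HSPE1 and 59.7% for HSF1. The median over all genes was 62.8%, and 71.1% over genes with a mean CPM of at least 20. Treatment took 25.4% for HSPE1, 23.7% for HSF1 and 19.7% for HSPD1, but 8.48% or less for the other 7, with a median of 10.2% over all genes. On the log2 scale the replicate means spanned 1.61 for HSPA1B, a span reached by 0.555% of all genes tested, and 0.65 for HSPA1A, reached by 12.8%. They spanned 0.41 for BAG3, CHORDC1 and DNAJB1, 0.32 for HSPH1 and 0.31 for HSP90AA1, spans that 26.8 to 35.6% of all genes reached. HSPE1, HSPD1 and HSF1 spanned 0.19, 0.10 and 0.06, which 53.7%, 74.1% and 87.8% of all genes reached. The median span was 0.21 over all genes tested but 0.10 over genes with a mean CPM of at least 20. The spans of BAG3 and CHORDC1 were thus larger than their blocked changes with S767, -0.11 and -0.10. What the replicate numbers share was not tested.

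**Figure D4:**
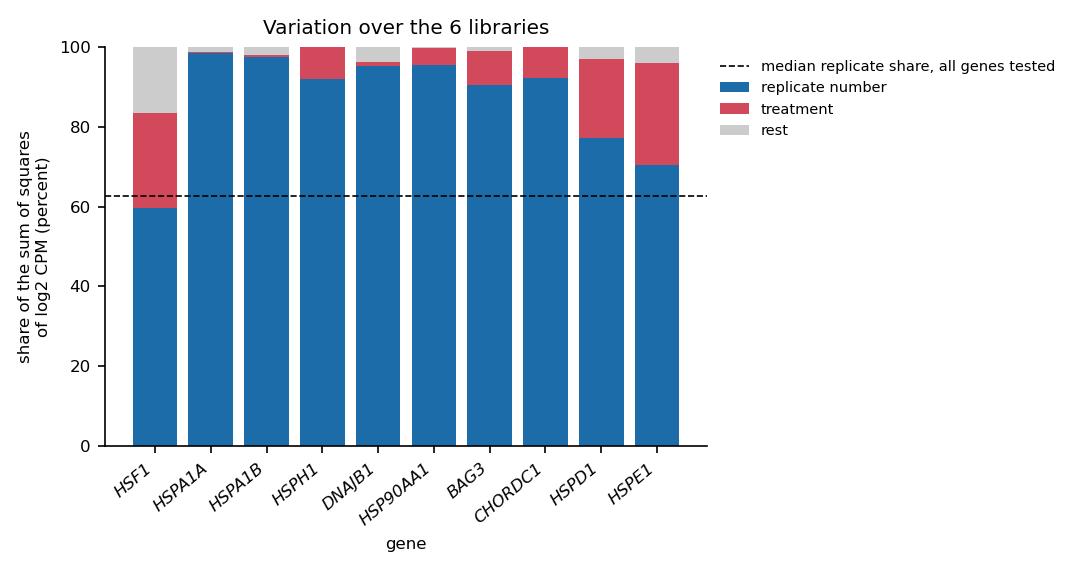
Share of the sum of squares of log2 CPM over the 6 libraries (vertical axis, percent, from 0 to 100) that goes with the replicate number, with the treatment and with neither, for each gene, and the median replicate share over all genes as a dashed line at 62.8%. The replicate share is above the line for the 9 chaperone genes, up to 98.6% in HSPA1A, and just below it for HSF1 at 59.7%.

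The wider pathway was followed through 10 hand-made lists with 103 genes in all, of which 95 were tested. Their median log2 fold change was -0.03, against -0.0002 over all genes tested. With no block, 0 of the 95 passed the adjusted limit, and the blocked fit called 2 lower, BAG3 and CHORDC1, and 0 higher. Apart from the members, 0 of the 85 genes tested were called by either fit.
Of 30 genes that HSF1 is known to induce, 28 were tested, with a median log2 fold change of -0.05. In all 3 pairs 13 were lower and 3 higher, where 17.8% of all genes were lower and 19.9% higher (20.7% and 24.6% of those with a mean CPM of at least 20). In 24 of the 28 replicate 1 was the highest library under both treatments, against 21.3% of all genes and 22.7% of those with a mean CPM of at least 20. The list shares the 9 chaperone genes with the members and is no separate evidence. HSPA6, the most strictly inducible HSP70, was chosen here after its values were seen. It was at 4.97 ± 2.43 CPM in DMSO and 4.46 ± 2.66 CPM in S767 (SD, n = 3), with an adjusted p of 1.00 without the block (edgeR). HSPA6 was lower in all 3 pairs, with log2 ratios of -0.02, -0.24 and -0.35. Its blocked log2 fold change was -0.19 (95% interval -0.35 to -0.03, adjusted p = 0.20, edgeR), which missed the limit.
The list of nucleotide exchange factors and BAG proteins, which make HSP70 let go of its nucleotide and client, had 5 of 7 genes lower in all 3 pairs, against the same 17.8% of all genes, and a median of -0.06, with BAG3 as its single call under the block. Of the 8 subunits of the cytosolic chaperonin TRiC, which folds actin and tubulin, 6 were lower in all 3 pairs, against that 17.8%. Their median was -0.04 and 0 were called. The 14 genes of HSP90 and its cochaperones had a median of -0.02 and CHORDC1 as their call under the block. The HSP40 list had 16 genes and a median of -0.02. DNAJC2, a ribosome-bound HSP40, was the one list gene outside the members with an unadjusted P under 0.05 without the block. With the block 22 of these 85 genes were lower and 1 higher at that limit. Over all 20725 genes tested, 1532 were lower and 1943 higher in that fit. Among the 7666 genes with a mean CPM of at least 20, it was 869 and 1124. DNAJC2 was at 89.0 CPM in DMSO and 82.9 CPM in S767, with a log2 fold change of -0.10, and its adjusted p in edgeR was 1.00 without the block and 0.058 with it.
The endoplasmic reticulum list held chaperones, which answer mainly to the unfolded protein response, and DDIT3, HERPUD1 and XBP1, which are not chaperones. Its 16 genes had a median of 0.01 and 0 called. In all 3 pairs 3 of them were lower and 3 higher, against 17.8% and 19.9% of all genes. The lists of HSP70 and HSP110 (11 tested, median -0.05) and mitochondrial chaperones (10 tested, -0.03) held no call besides those named. Nor did the lists of heat shock factors with their binding protein HSBP1 (4 tested, -0.05) and small heat shock proteins (2 of 8 tested, -0.10).

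**Figure D5:**
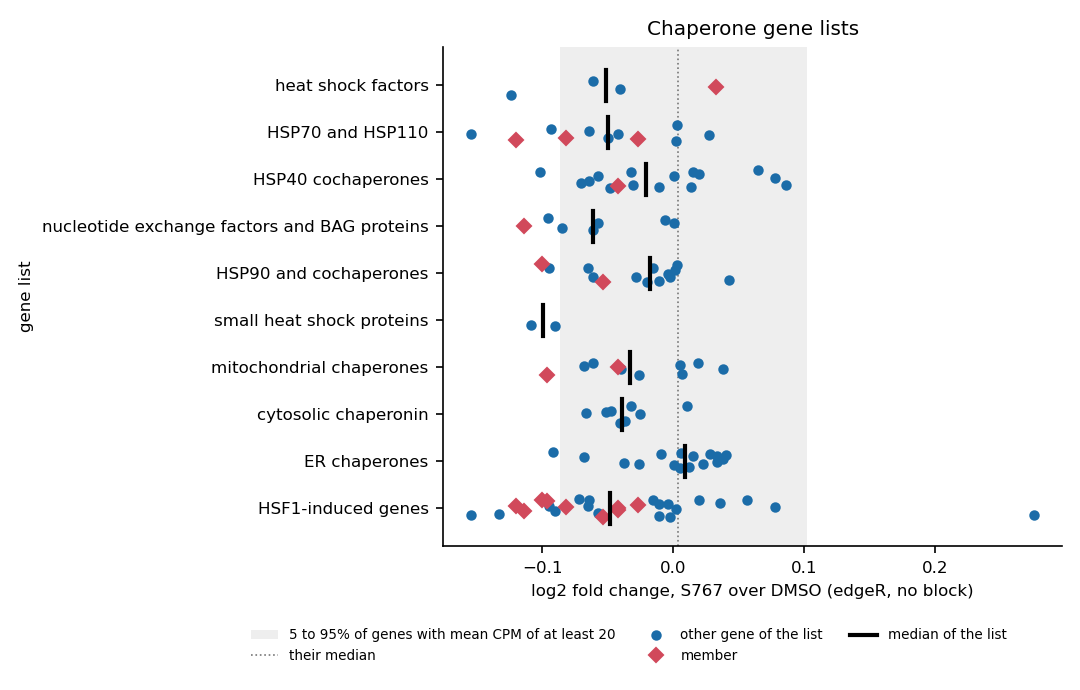
The log2 fold change of S767 over DMSO (horizontal axis, edgeR without the block) of each tested gene of 10 gene lists, with members as red diamonds, the list medians as black bars and the range of the middle 90% of genes with a mean CPM of at least 20 shaded. The medians lie between -0.10 and 0.01, and most genes lie inside the shaded range of -0.09 to 0.10.

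The genes whose pattern over the 6 libraries was most like that of HSF1, among 9591 genes searched outside the members, were GPX1 (Pearson r = 0.9985), TRIP4 (0.9947), DUS1L (0.9877), CGREF1 (0.9873) and JMJD8 (0.9856). For the mean of the 9 chaperone genes they were P3H1 (0.9984), OLIG1 (0.9949), CNIH4 (0.9927), NXF1 (0.9925) and FAM193B (0.9923). These values describe 6 libraries that fall into 3 pairs, and the top of so long a search reaches high values with so few libraries.

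As a check of the cells, all 8 myeloid markers reached at least 1 TPM, with a summed level of 772 to 1180 TPM in DMSO and 768 to 1184 TPM in S767. Of 12 markers of other cell types 2 reached 1 TPM, CD79A and PECAM1, and 7 stayed below 0.1 TPM, with sums of 9.18 to 14.9 TPM in DMSO and 10.0 to 14.9 TPM in S767. CD33, a myeloid surface marker, was higher in S767 with the block (log2 fold change 0.11, adjusted p = 0.024, edgeR) and not without it (adjusted p = 1.00). The myeloid markers did not share a direction. At an unadjusted P under 0.05 in the blocked fit, 2 of the 7 tested were lower and 1, CD33, was higher. Libraries held 149994700 to 258029564 gene counts, so that the least abundant value among the members still rests on 1524 counts. In bulk RNA, a change in the number of cells of a kind and a change of RNA per cell cannot be told apart.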

How the data were processed

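Stranded mRNA libraries of OCI-AML5 cells were analysed, 3 for each treatment, with treatment and replicate number taken from the labels. The submitters' processing notes name STAR 2.7.1a, RSEM 1.2.28 and GRCh38. The authors deposited counts per gene, without normalization, for each strand, and RSEM tables with expected counts and TPM. The reverse-strand counts were used, since the forward strand held 6.44 to 6.58% of the total. Lines naming no gene, 20.3% of fragments, were left out. Symbols and positions came from GENCODE 29 (GRCh38).

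Genes passing filterByExpr (minimum count 10) were normalized by TMM and compared by edgeR's quasi-likelihood test (edgeR 4.0.16, R 4.3.3), with Benjamini-Hochberg adjustment over 20725 genes. Each SE was obtained from the fold change and the F statistic. Single values were tested by an exact permutation test over libraries. CPM used the TMM factors, and log2 CPM a prior count of 2.

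The numbers pair the libraries. The deviations of libraries from their group mean were correlated over 6191 genes with mean log2 CPM over 5. Equal numbers had correlations of 0.779, 0.872 and 0.754. All unequal ones were below 0, which the centring on a mean of 3 libraries largely fixes and which adds little. The pairing is read from these values, and the labels do not say what a number stands for. The main design has no block, and blocked values stand beside it.

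The members, the gene lists and the tests were chosen with earlier results of these data known. All members were named, as were other list genes with an unadjusted P under 0.05 without the block or an adjusted p under 0.05 with it, genes overlapping a member, and the 5 genes most like HSF1 or the chaperone mean with a mean log2 CPM above 3. Alternatives were DESeq2 1.42.0, limma-voom in limma 3.58.1, library size alone or RLE factors, other count filters, unstranded counts, expected counts rounded to whole numbers, log2(TPM + 1) and log2(TPM + 0.1) in limma, the replicate block, and leaving out libraries or pairs.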

Additional observations from a re-analysis of the deposited data

How the results depend on the processing

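Over 23 alternatives, no setting without the replicate block called any of the 10 genes. HSF1 stayed above 0 in all 23, HSPD1 and HSPE1 below 0 in all 23, and the other 7 genes below 0 in 19 to 22.

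The replicate block called 2 of the 10 genes and 2 of the 95 list genes (670 of all genes, against 1 without it). With library size alone it called 2, 4 and 617, with limma-voom 3, 5 and 609, and with RSEM counts 1, 1 and 394. The block without replicate 1 called 3, 9 and 2034 (HSPH1, BAG3 and CHORDC1 among the members), without replicate 2 it called 24 genes in all and no member, and without replicate 3 it called 2, 4 and 636 (HSPA1B and HSPE1). Of all genes, DESeq2 called 25, no low-count filter 9, log2(TPM + 0.1) 6 and log2(TPM + 1) 3, and leaving out 1 library at a time 1 to 2.

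Leaving out 1 library at a time moved the members' median log2 change from -0.07 to between -0.15 and 0.032, above 0 only without DMSO replicate 1. Leaving out both libraries of a number, with the block, kept it at -0.05, -0.08 and -0.08. The values ran from -0.24 to 0.25 for HSPA1A, from -0.46 to 0.32 for HSPA1B, from -0.18 to 0.022 for HSPH1, from -0.15 to 0.086 for DNAJB1, from -0.13 to 0.031 for HSP90AA1, from -0.25 to 0.034 for BAG3 and from -0.22 to 0.029 for CHORDC1. All 7 were above 0 without DMSO replicate 1, HSPA1A, HSPA1B and DNAJB1 also without S767 replicate 2, and HSPA1A and HSP90AA1 also without S767 replicate 3. With the block and without replicate 1, HSPA1A (0.031), HSPA1B (0.048) and DNAJB1 (0.0091) were above 0. None of these was past the limit, and the cause was not tested.

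The lowest count of a member in a library was 1524, so counting error was small beside the spread between replicate numbers.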
